A study of Mus musculus with 6 samples.

Results

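The 10 genes described here, Duxf3, Tcstv1, Tcstv3, Usp17la, Usp17lc, Zfp352, Tmem92, Spz1, Arg2 and Gm2022, belong to the set that mouse embryonic stem cells switch on when they pass into a state resembling the 2-cell embryo. They were picked by symbol from the 53465 genes counted, with the Zscan4 genes kept apart, because their counts in these libraries were known to be high under BMP inhibition. Their values in that comparison are therefore given as a description, without a test. The libraries came from Royan B20, a line of mouse embryonic stem cells, grown on 0.1% gelatin in R2i medium with LIF for 7 passages. R2i held 1 µM PD0329501, as the labels spell the compound that the R2i recipe uses against MEK, and 10 µM SB431542, which blocks the TGF-beta, activin and nodal receptors. In the BMP-inhibited group (3 libraries) the same medium also held 250 nM noggin, a secreted antagonist of BMP ligands, and 5 µM dorsomorphin, a small inhibitor of BMP type I receptors. The R2i control group (3 libraries) had neither. All cells came from 1 line, the duration of inhibition is not labelled, and no BMP activity was measured, so "BMP-inhibited" names a treatment. Both groups carried the embryonic stem cell markers. Pou5f1, Sox2, Nanog and 7 others each had a mean of at least 130 CPM over all 6 libraries (counts scaled to library size, here with the TMM factors).

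In the mouse embryo, the first large wave of transcription comes at the 2-cell stage. DUX, a protein with a pair of homeodomains, is encoded by genes in a tandem array, of which Duxf3 is an annotated copy, and binds and activates many genes of that wave together with the endogenous retrovirus MERVL. In embryonic stem cell cultures a small and changing fraction of cells passes through a related state, in which Dux, Zscan4, Tcstv, Usp17-like and Eif1a-like genes are transcribed. In bulk RNA a larger fraction of such cells and more RNA per such cell cannot be told apart.

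The sequences before the start sites of Dux and 3 genes of that wave are shown first, because they are the stretches in which a shared DUX motif would be looked for. RefSeq start windows on GRCm38.p6 were at hand for 5 of the 10 genes. The 250 bases upstream of the RefSeq start are printed 5′ to 3′ on the gene's own strand. RefSeq and GENCODE place some starts differently, and the Duxf3 window lies outside the GENCODE gene while the Usp17lc window lies inside it. The Duxf3 window is chr10:58233090-58233339 on the minus strand, that of Zfp352 is chr4:90218570-90218819, that of Usp17la is chr7:104856766-104857015 and that of Usp17lc is chr7:103416446-103416695, the last 3 on the plus strand. Capitals mark TGATTNAAT in Duxf3, each TAATCC in Zfp352, TTTAAA in Usp17la and TATAAA in Usp17lc.
Duxf3: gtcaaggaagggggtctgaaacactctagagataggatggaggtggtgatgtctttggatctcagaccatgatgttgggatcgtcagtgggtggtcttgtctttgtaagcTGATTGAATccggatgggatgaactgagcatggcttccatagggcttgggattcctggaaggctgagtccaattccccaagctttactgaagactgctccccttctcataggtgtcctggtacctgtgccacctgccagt
Zfp352: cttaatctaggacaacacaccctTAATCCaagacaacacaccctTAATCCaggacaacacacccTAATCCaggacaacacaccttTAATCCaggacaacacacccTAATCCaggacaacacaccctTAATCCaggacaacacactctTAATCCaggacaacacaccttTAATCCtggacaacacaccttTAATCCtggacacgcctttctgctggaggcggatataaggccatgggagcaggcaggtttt
Usp17la: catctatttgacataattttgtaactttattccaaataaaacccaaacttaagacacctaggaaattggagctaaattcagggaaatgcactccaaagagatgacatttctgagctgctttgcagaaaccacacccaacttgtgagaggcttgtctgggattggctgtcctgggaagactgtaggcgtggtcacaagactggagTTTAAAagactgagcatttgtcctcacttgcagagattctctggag
Usp17lc: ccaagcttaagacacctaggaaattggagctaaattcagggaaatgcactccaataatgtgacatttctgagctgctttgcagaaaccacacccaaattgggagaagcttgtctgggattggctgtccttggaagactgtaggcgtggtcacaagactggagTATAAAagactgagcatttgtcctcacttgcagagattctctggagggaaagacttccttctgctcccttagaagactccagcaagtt
The Zfp352 window is a tandem repeat. It held 9 copies of TAATCC, the core that homeodomain proteins such as OTX2 recognise, alternating with 9 copies of GACAACACA, a unit read off this window, that do not overlap them. On either strand TAATCC occurred in 6.25% of 32851 RefSeq windows of the same length, and GACAACACA in 0.289%. TGATTNAAT, the first 9 letters of the motif reported for mouse DUX, was searched on both strands. Later letters of the motif were not searched, so the single match in the 5 windows is partial, and DUX binding there was not tested. That match lies in the Duxf3 window, with its first base 140 bases before the start, and TGATTNAAT occurred in 0.658% of all windows. TAATCTAAT, the first 9 letters of a form reported for human DUX4, which shares its core with it, had 0 matches on either strand in the 5 windows and occurred in 0.103% of all. TATAAA, searched on the gene's strand, matched at 88 bases before the Usp17lc start and occurred in 7.59% of windows. Over 208 aligned positions the Usp17la and Usp17lc windows shared 198 bases, which is 95.2%.

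Before each gene is taken in turn, the sum over the 10 genes gives the size of the signal. The sum was 676, 529 and 868 counts in the 3 BMP-inhibited libraries, against 8, 8 and 1 in the 3 control libraries, 133-fold in scaled terms. All 10 genes had counts in every BMP-inhibited library, and 6 had none in any control library. For all 10, the lowest BMP-inhibited library was above the highest control library, a separation that 34.5% of the 15951 genes tested, and 23.7% of the 28371 genes with at least 1 count, also showed in that direction. The choice of the genes fixed this, so nothing is read from it. Where a gene had no control count, a fold is bounded from a floor of 3 counts over the control group, equal to 0.029 CPM. Where it had some, the ratio carries an exact 95% binomial interval that covers counting error only. The floor-based bounds leave out the counting error of the BMP-inhibited counts, so "at least" refers to the control side only. They are not comparable with the lower ends of the binomial intervals. Leaving out 1 control library lowers a floor-based bound by construction, and over the 6 such genes the lowest value was then 12.5, for Zfp352.

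Transcription factors come first by role. Duxf3 (ENSMUSG00000075046, chr10:58229979-58232675, minus strand), which encodes DUX, had 19, 28 and 24 counts in BMP-inhibited libraries, against 0, 0 and 0 in control libraries. Its level was 0.748 ± 0.143 CPM (SD, n = 3), at least 25.8-fold higher than the control floor, or at least 16.8-fold without control replicate 2. The exact 95% Poisson intervals of its 3 counts, 11.4 to 29.7, 18.6 to 40.5 and 15.4 to 35.7, overlapped, so the BMP-inhibited libraries were not distinguishable by counting error alone. Zfp352 (ENSMUSG00000070902, chr4:90218820-90225702, plus strand), a zinc-finger gene expressed in the 2-cell embryo, had 23, 7 and 23 counts in BMP-inhibited libraries, against 0, 0 and 0 in control libraries. Replicate 2 stood low, with a Poisson interval of 2.81 to 14.4 that did not reach the 14.6 to 34.5 of the other 2 libraries. Zfp352 was the only one of the 10 genes not to pass the filter on low counts. Its level was 0.556 ± 0.288 CPM (SD, n = 3), at least 19.3-fold above the floor, or 12.5-fold without control replicate 2. Spz1 (ENSMUSG00000046957, chr13:92574636-92576172, minus strand) encodes a helix-loop-helix leucine-zipper factor first described in testis. It had 28, 18 and 33 counts in BMP-inhibited libraries, against 0, 0 and 0 in control libraries, which put it at 0.829 ± 0.223 CPM (SD, n = 3), at least 28.7-fold above the floor, or 18.7-fold without control replicate 2. All 3 factors had no count in any control library.

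The Usp17-like genes encode deubiquitinating enzymes of a family that mouse haematopoietic cells induce on cytokine stimulation. Usp17la (ENSMUSG00000054568, chr7:104857009-104862667, plus strand) had 60, 39 and 80 counts in BMP-inhibited libraries, against 0, 1 and 0 in control libraries. The ratio was 195 (95% interval 34.6 to 7760) and rested on that single control count; without control replicate 2 it became a bound of 42.3. Usp17lc (ENSMUSG00000058976, chr7:103415072-103419880, plus strand) had 74, 70 and 106 counts in BMP-inhibited libraries, against 0, 0 and 0 in control libraries. At 2.62 ± 0.53 CPM (SD, n = 3) it was at least 90.9-fold above the floor, and at least 59.1-fold without control replicate 2.

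Tcstv1 and Tcstv3 belong to a cluster of genes named for their expression at the 2-cell stage. Tcstv1 (ENSMUSG00000096284, chr13:119893388-119894785, minus strand) had 118, 92 and 155 counts in BMP-inhibited libraries, against 1, 0 and 0 in control libraries. Its ratio of 398 (95% interval 71.0 to 15800) became a bound of 88.9 without control replicate 1, the library with the 1 count. Tcstv3 (ENSMUSG00000095821, chr13:120316878-120318178, plus strand) had 35, 22 and 38 counts in BMP-inhibited libraries, against 0, 0 and 0 in control libraries. It reached 0.998 ± 0.253 CPM (SD, n = 3), at least 34.5-fold above the floor and at least 22.5-fold without control replicate 2. In both genes BMP-inhibited replicate 2 was the lowest of its group and still far from the control libraries.

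Gm2022 (ENSMUSG00000113971, chr12:87895370-87895804, plus strand) is one of many copies of Eif1a, which encodes a factor of translation initiation. It had 20, 17 and 18 counts in BMP-inhibited libraries, against 0, 0 and 0 in control libraries, at least 20.0-fold above the floor and at least 13.0-fold without control replicate 2. The 3 counts were nearly equal. Tmem92 (ENSMUSG00000075610, chr11:94777217-94782703, minus strand) encodes a small membrane protein. It had the highest counts of the 10 genes, 251, 190 and 348 in BMP-inhibited libraries, against 2, 1 and 0 in control libraries. The ratio was 287 (95% interval 97.8 to 1390), 577 without control replicate 1 and 195 without control replicate 3.

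Arg2 (ENSMUSG00000021125, chr12:79130777-79156301, plus strand), the mitochondrial arginase that splits arginine into ornithine and urea, was the member with a clear control signal. It had 48, 46 and 43 counts in BMP-inhibited libraries, against 5, 6 and 1 in control libraries. The groups did not overlap, and the level was 1.45 ± 0.123 CPM in BMP-inhibited libraries and 0.114 ± 0.0732 CPM in control libraries (SD, n = 3 each). The ratio of 12.5 (95% interval 6.9 to 24.7) was the smallest of the 10 and fell to 9.24 without control replicate 3. Arg2 shares 285 exon bases with Vti1b and 116 with Gm48780 on the opposite strand, and the strand setting of the counting is not given in the sources used here. Vti1b itself, at 37.3 ± 1.16 CPM in BMP-inhibited libraries and 35.7 ± 1.24 CPM in control libraries (SD, n = 3 each), differed by 0.06 on the log2 scale (SE 0.06) and did not pass edgeR's quasi-likelihood test (adjusted p = 0.378).

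**Figure D1:**
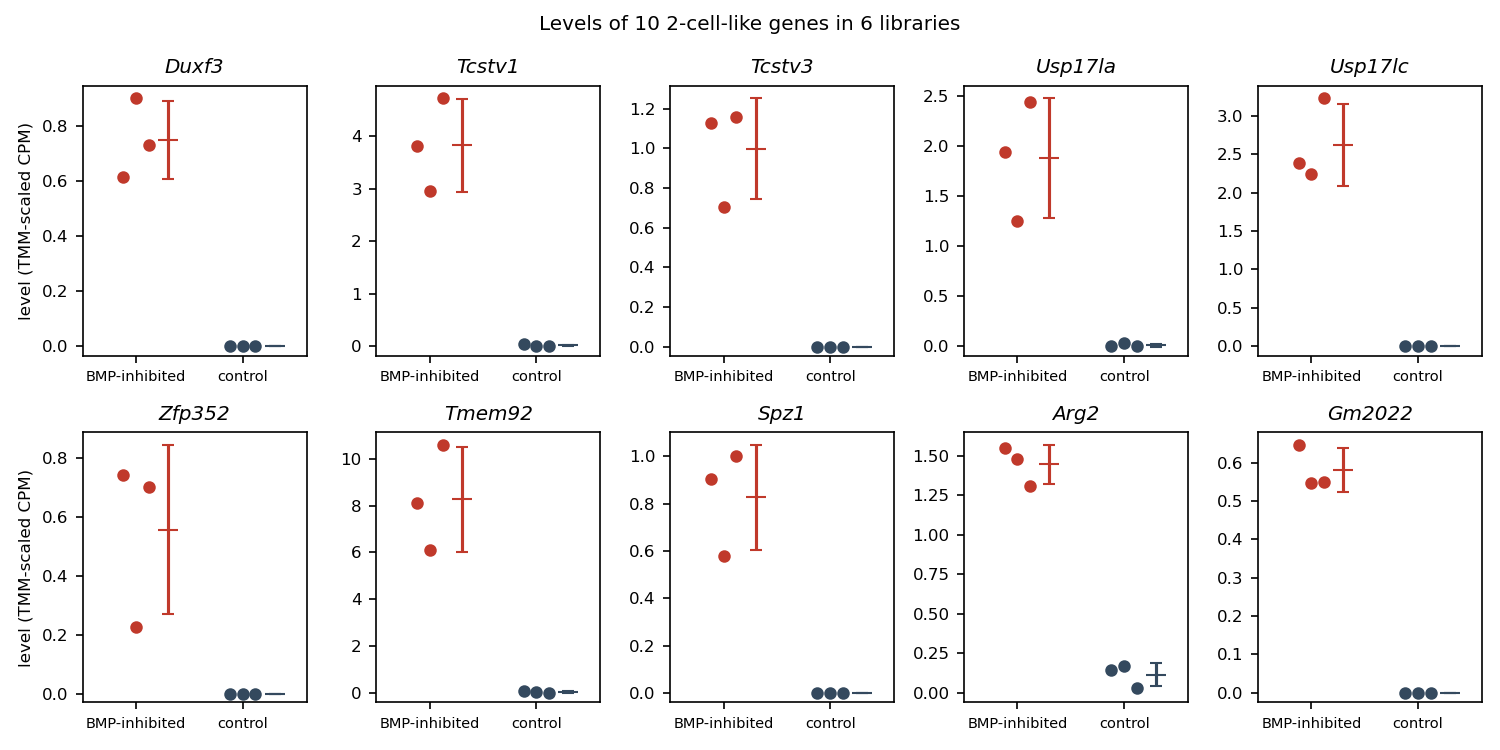
Level of each of the 10 genes in TMM-scaled CPM (vertical axis, a separate linear scale per gene) in the 3 BMP-inhibited libraries (red) and the 3 control libraries (dark blue). Points are libraries in the order of their replicate numbers, and the bar beside them is the mean ± SD; in every panel the lowest red point lies above the highest blue one, and Arg2 alone has control points clearly off 0.

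Levels were low throughout. Per kilobase of exon in BMP-inhibited libraries, Tmem92 stood at 3.78 ± 1.03 CPM per kb, Tcstv1 at 2.74 ± 0.632, Gm2022 at 1.33 ± 0.131, Tcstv3 at 1.28 ± 0.325, Usp17lc at 1.07 ± 0.216 and Arg2 at 1.01 ± 0.0863 CPM per kb (SD, n = 3). Below them came Usp17la at 0.706 ± 0.224, Spz1 at 0.539 ± 0.145, Duxf3 at 0.277 ± 0.0532 and Zfp352 at 0.244 ± 0.126 CPM per kb (SD, n = 3). Neighbours in this order differed by less than the sum of their SDs, except Tcstv1 against Gm2022 and Spz1 against Duxf3. Tmem92 was above 47.0% of the tested genes on this scale and Zfp352 above 9.78%. Duxf3, which encodes DUX, was above 11.0%. Multiply aligned reads were left out while the full exon length was used. The 7 genes with near-identical copies, described below, may therefore be underestimated. The order mixes level with how uniquely reads align.

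Within the BMP-inhibited group the genes did not vary alike. Replicate 2 held the lowest CPM for 8 of the 10 genes, a place it held for 36.7% of tested genes. Its level relative to the mean of the other 2 libraries had a median of 0.672 over the 10 genes and of 0.997 over all tested genes. Most tested genes had far higher counts, and several of the 10 are relatives of each other, so the 2 medians are given side by side without a reading. The ratio was 0.311 for Zfp352, 0.573 for Usp17la, 0.605 for Spz1, 0.618 for Tcstv3, 0.652 for Tmem92, 0.692 for Tcstv1 and 0.8 for Usp17lc. Gm2022 at 0.914 and Arg2 at 1.03 were nearly even. Duxf3 was the only gene of the 10 with its highest level in replicate 2, at 1.34 times the mean of the others, though its counts did not differ beyond counting error. Zfp352 was not alone in differing beyond it. The Poisson intervals of Tmem92, in replicate order 221 to 284, 164 to 219 and 312 to 387, did not overlap. In Tcstv1 and Usp17la the interval of replicate 2 lay below that of replicate 3. In Tcstv3, Usp17lc, Spz1, Arg2 and Gm2022 the intervals overlapped, as in Duxf3. The 9 Zscan4 genes and pseudogenes summed to 1558, 1142 and 1729 counts in BMP-inhibited libraries, against 2, 0 and 2 in control libraries. Each of the 9 was lowest in BMP-inhibited replicate 2.

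**Figure D2:**
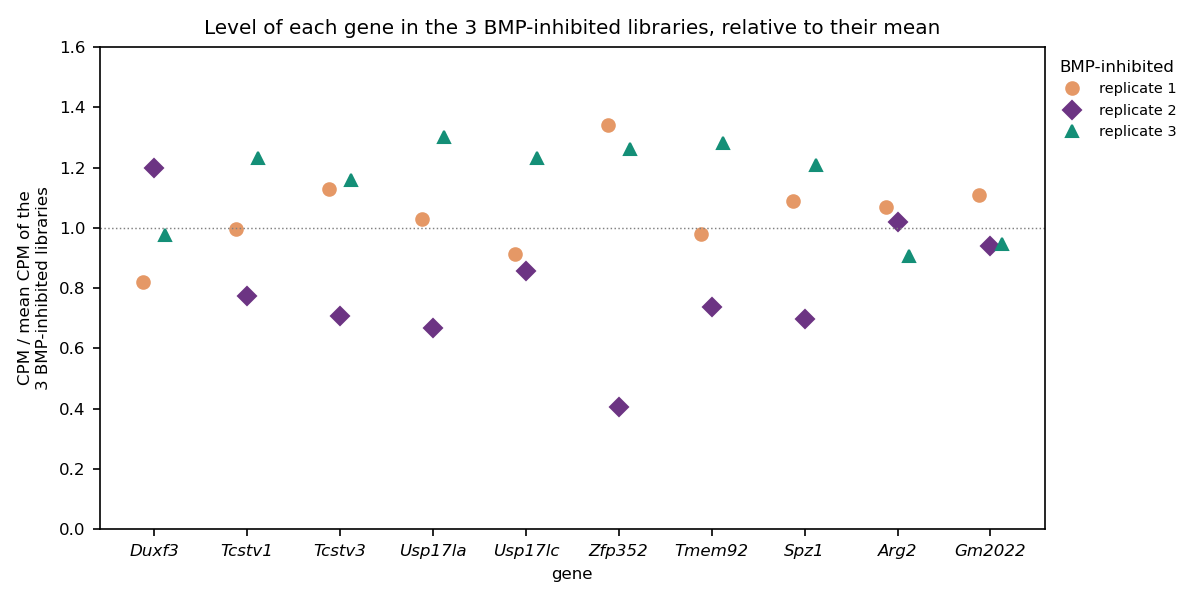
CPM of each gene in BMP-inhibited replicates 1 (circle), 2 (diamond) and 3 (triangle), divided by the mean of the 3 libraries (vertical axis, dotted line at 1). Replicate 2 lies below the other 2 libraries for 8 genes, is between them for Arg2 and above them for Duxf3.

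Most of the 10 genes have near-identical relatives, counted here as genes with at least 90% identity over at least 50% of the member's transcript: 7 have at least 1, and Tmem92, Spz1 and Arg2 have none. Multiply aligned reads, 16.3% to 17.6% of each library, were assigned to no gene, so a copy is counted only where its sequence differs from the others, and its count is uncertain. Duxf3 with its neighbours AW822073, 95.9% identical, and the pseudogene Gm10807, 95.1% identical, summed to 43, 35 and 37 counts in BMP-inhibited libraries, against 0, 0 and 0 in control libraries. AW822073 had 22, 6 and 12 counts in BMP-inhibited libraries, lowest in replicate 2, where Duxf3 itself was highest.

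The 8 genes of the Tcstv family on chromosome 13 summed to 602, 417 and 741 counts in BMP-inhibited libraries, against 1, 0 and 0 in control libraries, and 7 of the 8 had no control count. Gm20767, with 232, 143 and 251 counts in BMP-inhibited libraries and none in control libraries, held the largest share, more than Tcstv1. The 6 genes of the Usp17-like family on chromosome 7 summed to 406, 290 and 473 counts in BMP-inhibited libraries, against 0, 2 and 1 in control libraries. Usp17le alone had 202, 122 and 193 of them in BMP-inhibited libraries.

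Gm2022 and 18 further copies on chromosome 12, leaving out the parent gene Eif1a, summed to 994, 635 and 1109 counts in BMP-inhibited libraries, against 15, 13 and 9 in control libraries, 80.7-fold in scaled terms. Of these 19 genes, 17 had counts in every BMP-inhibited library. Gm5039 and Gm5662, with totals in BMP-inhibited libraries of 801 and 694 counts, held more than Gm2022 with 55. Eif1a, the source of the copies and 94.9% identical to Gm2022, was expressed at 235 ± 13.7 CPM in BMP-inhibited libraries and 205 ± 8.29 CPM in control libraries (SD, n = 3 each). It rose by 0.20 on the log2 scale (SE 0.05, adjusted p = 0.00248 in edgeR's quasi-likelihood test), beside the 80.7-fold of the summed copies. In control libraries 8 of the 19 genes had 0 counts throughout, while Eif1a had 7172, 7087 and 6960 counts there.

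**Figure D3:**
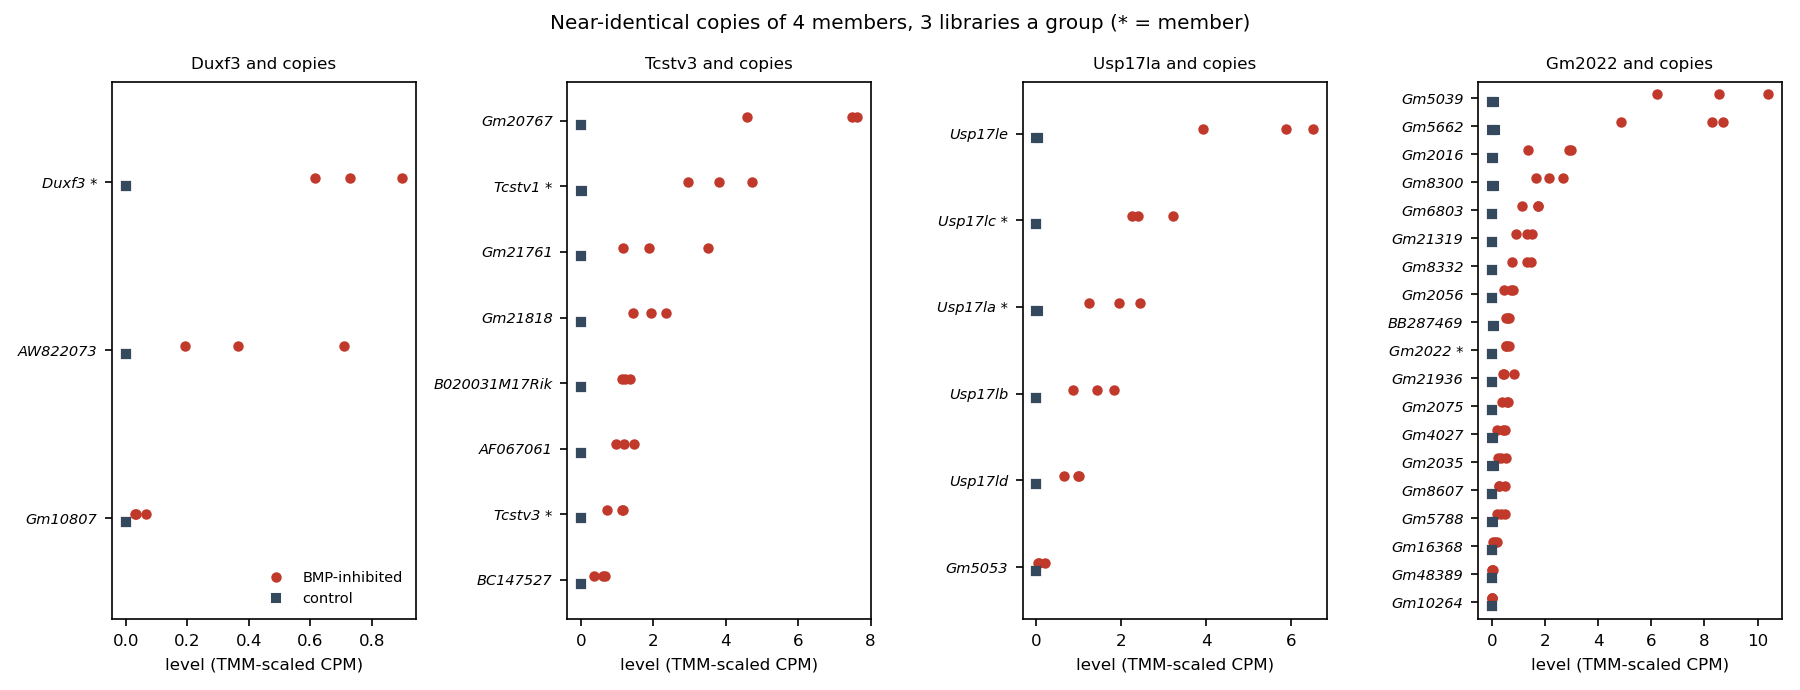
Level in TMM-scaled CPM (horizontal axis, a separate linear scale per family) of each member (asterisk) and its near-identical copies in the 3 BMP-inhibited (red) and 3 control (dark blue) libraries, with Eif1a left out. Control points lie at or next to 0 in all 4 families, and the largest levels belong to Gm20767, Usp17le, Gm5039 and Gm5662, which are not among the 10 genes.

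Tmem92 has no copy at 90% identity, but 6 unprocessed pseudogenes on its own strand, within 80 kb of its start, align to it at 83.8% to 88.9% identity. Gm11543, 46.2 kb upstream and 88.9% identical, had 122, 91 and 161 counts in BMP-inhibited libraries, against 0, 0 and 0 in control libraries. AA623943, 30.6 kb upstream, had 60, 50 and 63 counts in BMP-inhibited libraries, against 0, 0 and 0 in control libraries. Gm11546, 15.1 kb upstream, had 59, 20 and 82 counts in BMP-inhibited libraries, against 0, 0 and 1 in control libraries. Gm11544 had 12, 6 and 23 counts in BMP-inhibited libraries, against none in control libraries, and A430060F13Rik, the farthest upstream, had 0, 1 and 2 against none. Gm11545, 24.9 kb downstream, differed in having control counts, with 35, 18 and 35 in BMP-inhibited libraries, against 9, 8 and 13 in control libraries. Gm11545 rose in edgeR's test (log2 fold change 1.66, SE 0.39, adjusted p = 0.00167). Gm11543, AA623943 and Gm11546 were called higher too, but with 0, 0 and 1 control counts in all they could pass the count filter only through the libraries in which they are high, and the other 2 were too low to be tested. Of 15 further protein-coding genes within 250 kb, 10 were tested, and 3 rose and 3 fell, where 32.5% of all 15951 tested genes rose and 31.7% fell. Among those that rose was Col1a1, a collagen gene, at 3.46 ± 0.167 CPM in BMP-inhibited libraries and 1.28 ± 0.267 CPM in control libraries (SD, n = 3 each). Cdc34b, the nearest protein-coding gene, had 1, 2 and 4 counts in BMP-inhibited libraries, against 3, 4 and 5 in control libraries, and Xylt2 changed by -0.04 on the log2 scale (SE 0.06, adjusted p = 0.593) and did not pass. The pseudogenes and the protein-coding genes named here beyond Gm11543 were chosen after their values were seen.

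**Figure D4:**
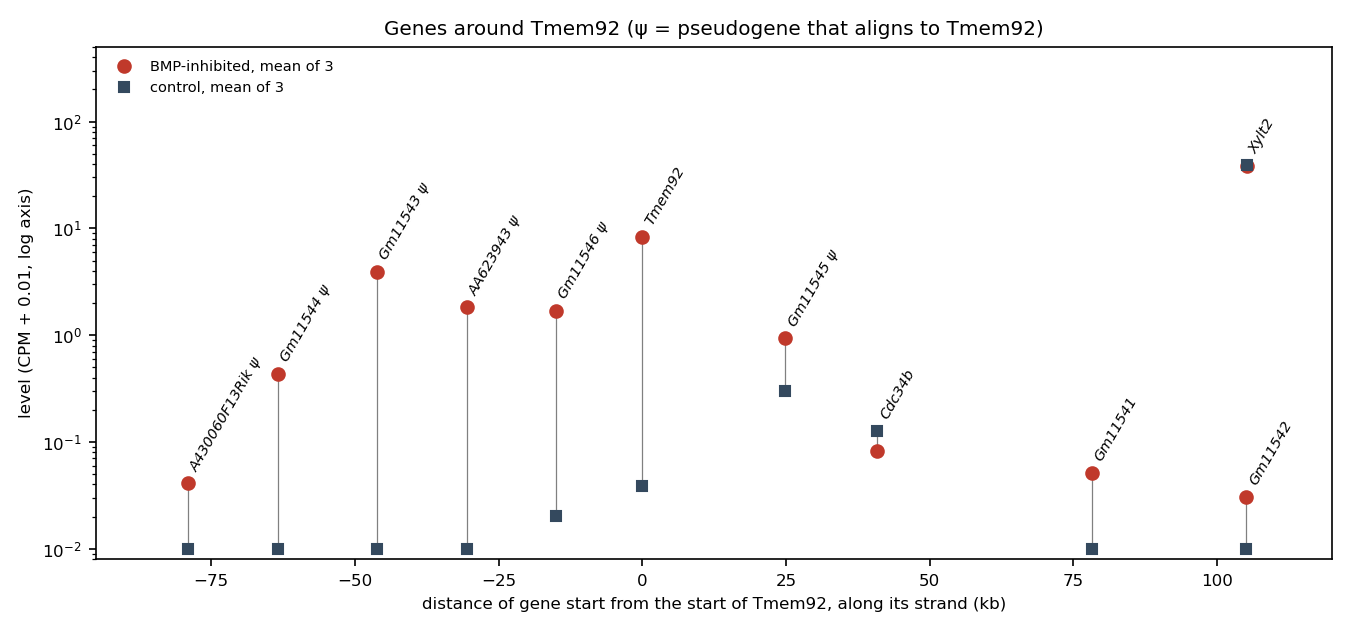
Mean CPM plus 0.01 (log axis) of genes with at least 1 count by the distance of their start from that of Tmem92 along its strand, in kb, for BMP-inhibited (red circles) and control (dark blue squares) libraries, 3 each. The pseudogenes that align to Tmem92 (marked ψ) have their red points above their blue ones, by the least for Gm11545, Cdc34b and Xylt2 have both points close together, and the red points of Gm11541 and Gm11542 stand for few counts.

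Among the other annotated genes within 250 kb of a member, 39 of 201 could be tested, and 20 rose while 9 fell, with a median log2 fold change of 0.17 (0.00 over all tested genes). These are shares of 51.3% and 23.1%, where 32.5% of all tested genes rose and 31.7% fell. Calls in both directions were thus common anywhere, and the larger share of rises was not tested. Relatives of members with under 90% identity were kept in this list. The 20 include the Tmem92 pseudogenes above, some of which could be tested only because they were high. The genes with the smallest p were Hmgcs1 near Tcstv1, Gm21939 near Gm2022, Rad51b near Arg2 and Gm11543 near Tmem92. Hmgcs1, which encodes an early enzyme of cholesterol synthesis, rose to 327 ± 25.1 CPM in BMP-inhibited libraries, against 122 ± 3.98 CPM in control libraries (SD, n = 3 each). Gm21939 had 438, 298 and 364 counts in BMP-inhibited libraries, against 4, 4 and 4 in control libraries, and it rose by 6.60 on the log2 scale (SE 0.26, adjusted p = 1.49e-11 in edgeR's test). Rad51b, of homologous recombination, fell to 4.65 ± 0.546 CPM in BMP-inhibited libraries, against 14.4 ± 0.514 CPM in control libraries (SD, n = 3 each).

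Genes that act on Dux were measured next. All 4 genes of the list known to promote Dux rose, where 32.5% of all tested genes did. The list is short and was chosen with earlier results of these data known, so this count is no independent support. A link between these genes and Duxf3 was not tested. Dppa2, which with its partner Dppa4 binds and activates the Dux locus in mouse embryonic stem cells, had 2611, 2591 and 2886 counts in BMP-inhibited libraries, against 1760, 1877 and 1601 in control libraries. The groups did not overlap, and Dppa2 rose by 0.75 on the log2 scale (SE 0.05, adjusted p = 5.31e-09 in edgeR's quasi-likelihood test). Dppa4 stood at 157 ± 6.24 CPM in BMP-inhibited libraries and 135 ± 2.61 CPM in control libraries (SD, n = 3 each; log2 fold change 0.22, SE 0.04, adjusted p = 0.000512). Trp53, which encodes p53 and activates Dux after DNA damage, stood at 591 ± 20.2 CPM in BMP-inhibited libraries and 399 ± 11.2 CPM in control libraries (SD, n = 3 each; log2 fold change 0.57, SE 0.04, adjusted p = 1.04e-08). Nelfa, a maternal factor that can drive the 2-cell-like state, rose by 0.36 on the log2 scale (SE 0.05, adjusted p = 7.44e-06). None of the 4 reached 2-fold, and all were already expressed in control libraries in which Duxf3 had no count.

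Genes known to hold Dux or the 2-cell-like state down moved both ways: of 26, all tested, 8 rose and 7 fell, shares of 30.8% and 26.9% near those of all genes, with a median log2 fold change of 0.00. Myc, reported to impede entry into the state in mouse cells, rose most among the 4 with the smallest p, to 16.2 ± 1.83 CPM in BMP-inhibited libraries, against 2.58 ± 0.376 CPM in control libraries (SD, n = 3 each; log2 fold change 2.65, SE 0.13, adjusted p = 1.8e-10 in edgeR's test). Atf7ip, a partner of the histone methyltransferase SETDB1, rose by 0.45 (SE 0.04, adjusted p = 3.49e-07). Ring1 and Pcgf6, subunits of polycomb repressive complexes, fell by 0.85 and 0.45 on the log2 scale (SE 0.08 and 0.05, adjusted p = 2.35e-07 and 5.66e-07). Among well-known repressors chosen after their values were seen, Smchd1 fell by 0.32 (SE 0.06, adjusted p = 9.54e-05) and Trim28 fell by 0.12 (SE 0.04, adjusted p = 0.0204). Chaf1a and Chaf1b, subunits of the chromatin assembly factor whose loss induces the state, had log2 fold changes of 0.03 and -0.03 (adjusted p = 0.523 and 0.6) and did not pass.

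**Figure D5:**
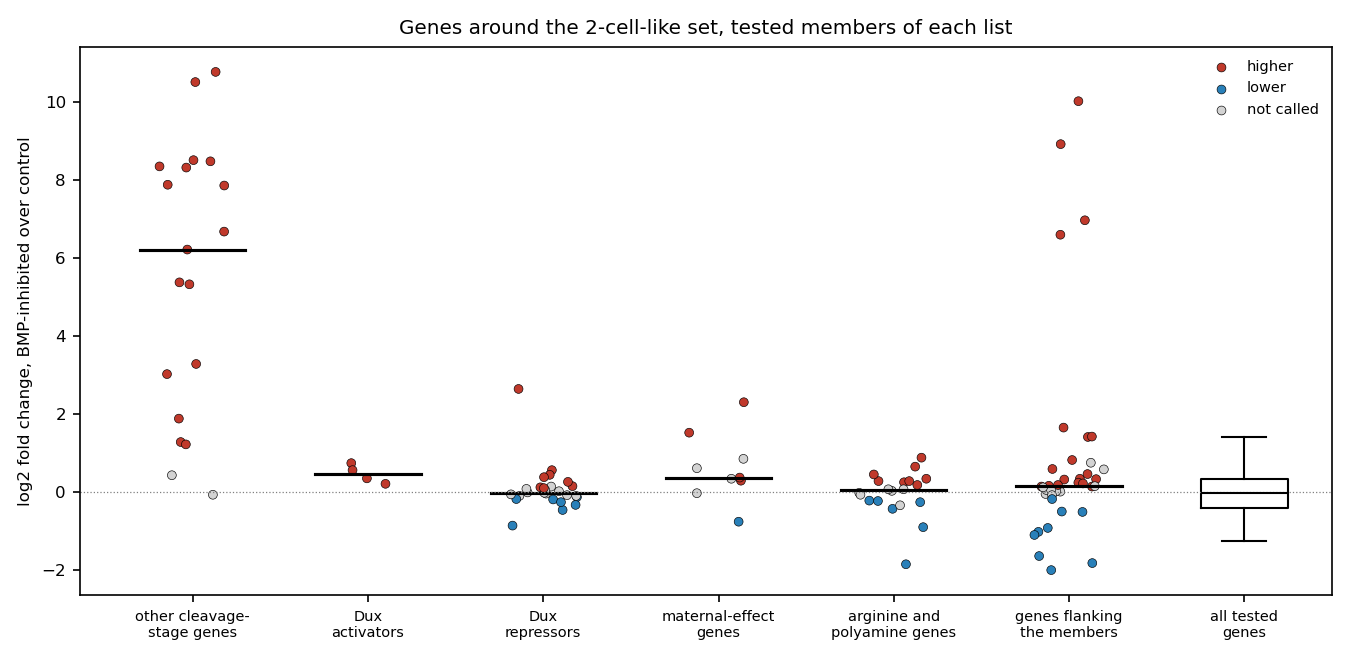
Fitted log2 fold change, BMP-inhibited over control, of each tested gene (point) in 6 lists, with the list median as a line and, at the right, a box of all 15951 tested genes (quartiles, with whiskers at the 5th and 95th percentiles). Red points rose, blue points fell and grey points did not pass; values above 7 belong mostly to genes with no control count, whose fitted values depend on the prior count.

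A further list held 46 genes of the 2-cell-like state or the cleavage-stage embryo outside the 10 and outside Zscan4. Of these 19 passed the count filter, 17 rose and 0 fell by edgeR's test, and likewise 0 fell at an unadjusted p under 0.05 and 0 by DESeq2. The median log2 fold change was 6.22, or 5.37 with the 7 tested genes without control counts set at their bound. A gene with few or no control counts passes the filter only through counts in BMP-inhibited libraries. The list also overlaps the families above, and the number that rose is therefore no independent support. When at least 10 counts were asked in every library, 3 were tested and 2 rose. Obox6 and Ddit4l, named after their values were seen, had ample counts in every control library. They rose by 1.89 (SE 0.12, adjusted p = 3.12e-09) and 1.23 (SE 0.09, adjusted p = 1.5e-08) on the log2 scale in edgeR's test. Of the 4 with the smallest p, 3 are relatives of members: Usp17le had 517 counts in BMP-inhibited libraries, against 2 in control libraries, Gm5662 had 694 against 7, and Gm20767 had 626 against 0. Trim43a, of a tripartite-motif family expressed in the cleavage embryo, had 224, 180 and 313 counts in BMP-inhibited libraries, against 7, 9 and 3 in control libraries (log2 fold change 5.33, SE 0.30, adjusted p = 5.63e-10). Lmx1a and Klf17 were tested and did not pass, with log2 fold changes of 0.44 (SE 0.44, adjusted p = 0.399) and -0.06 (SE 0.24, adjusted p = 0.832). Not all of the program was seen: of the 27 genes not tested, 8 had 0 counts in all 6 libraries. Multiply aligned reads were assigned to no gene, so 0 counts need not mean absent RNA.

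Maternal-effect genes, whose products are laid down in the oocyte, were mostly too low to test: 9 of 22 were tested, 4 rose and 1 fell, where 32.5% of all tested genes rose and 31.7% fell, with a median log2 fold change of 0.38. So few genes give no reading of the list as a whole. Dppa3, which encodes STELLA, a protector of maternal methylation, had 1790, 1252 and 1889 counts in BMP-inhibited libraries, against 358, 399 and 325 in control libraries (log2 fold change 2.31, SE 0.12, adjusted p = 2.31e-10 in edgeR's test). Its lowest BMP-inhibited library was again replicate 2. Khdc3 rose by 1.53 (SE 0.09, adjusted p = 1.65e-09) and Tle6 by 0.38 (SE 0.07, adjusted p = 0.000329), both of the subcortical maternal complex, and Zp3, of the egg coat, rose by 0.30 (SE 0.11, adjusted p = 0.0273). Tcl1, a coactivator of AKT, fell by 0.75 (SE 0.05, adjusted p = 4.75e-09).

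Around Arg2, the genes of arginine and polyamine metabolism moved in both directions: of 23 genes 20 were tested, 8 rose and 6 fell, shares of 40.0% and 30.0% near the 32.5% and 31.7% of all tested genes, with a median log2 fold change of 0.06. The largest fall was that of Pycr1, the last enzyme of proline synthesis, at 31.9 ± 3.6 CPM in BMP-inhibited libraries and 114 ± 2.5 CPM in control libraries (SD, n = 3 each; log2 fold change -1.84, SE 0.07, adjusted p = 5.67e-12 in edgeR's test). Aldh18a1, an earlier enzyme of that route, fell by 0.89 (SE 0.04, adjusted p = 6.89e-11). Smox, which oxidises spermine, rose by 0.66 (SE 0.07, adjusted p = 6.42e-07), and Amd1, of polyamine synthesis, rose by 0.46 (SE 0.05, adjusted p = 1.86e-06). Odc1, the decarboxylase that takes up ornithine, the product of arginase, was chosen after its value was seen and differed by 0.04 on the log2 scale (SE 0.04), which did not pass (adjusted p = 0.365). Arg1, the cytosolic arginase, had 0 counts in BMP-inhibited libraries and 1 in control libraries, so the arginase counted here was almost all Arg2.

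The genes whose 6-library profile was most like that of Duxf3 were sought among 16221 genes with at least 50 counts in all, by 0.5 times the summed absolute difference between the shares of CPM held by each library (0 for the same profile). With the Zscan4 genes and the members left out, the nearest were Usp17ld at a distance of 0.0468 and ENSMUSG00000087346, which has no symbol, at 0.053. Next came Gm15721 at 0.0573, Nkx2-2 at 0.0599 and Cybb at 0.0639. Usp17ld, of the Usp17-like family, had 20, 31 and 32 counts in BMP-inhibited libraries, against 0, 0 and 0 in control libraries. Nkx2-2, a homeobox gene of the neural tube and pancreas, had 13, 23 and 21 counts in BMP-inhibited libraries, against 3, 0 and 0 in control libraries. Cybb, which encodes a subunit of the phagocyte NADPH oxidase, had 15, 23 and 17 counts in BMP-inhibited libraries, against 2, 0 and 2 in control libraries. Of the other 9 members the nearest was Gm2022 at 0.0977 and the farthest Zfp352 at 0.266. The distances were not tested against counting error, which is large at counts this low.

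Silence in control libraries combined with counts under BMP inhibition was rare among all genes. Of 28371 genes with at least 1 count, 86 (0.303%) had at most 3 counts over the control libraries and at least 50 over the BMP-inhibited ones. These 86 comprised 9 of the 10 genes (all but Arg2), the 9 Zscan4 genes, 9 of the cleavage-stage list, 9 further copies of members and 50 others. The members were known to meet this description, so their place in it is no test.

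Markers of other cells differed between the groups as well. Fibroblast markers summed to 11.5 to 12.5 CPM in BMP-inhibited libraries and 5.76 to 7.15 CPM in control libraries; 5 of 10 were tested, 3 rose, and Dcn, Lum and Twist2 had at most 3 counts in all. Trophectoderm markers summed to 394 to 476 CPM in BMP-inhibited libraries and 220 to 228 CPM in control libraries, and 6 of 8 tested rose. The 10 embryonic stem cell markers summed to 4610 to 4870 CPM in BMP-inhibited libraries and 5430 to 5540 CPM in control libraries, where 1 rose and 7 fell. Over all tested genes 32.5% rose and 31.7% fell. The part of these shifts in the values above was not tested. Depth differed little, with 31474666 to 35322844 counts on genes per library, and with these totals a gene with 0 counts in all 3 control libraries could still have had up to 0.029 CPM.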

How the data were processed

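For each of 6 poly(A) RNA libraries the authors deposited unnormalized read counts by gene. The submitters' processing notes give the build GRCm38.p6 and the tools STAR 2.6.1, HTSeq 0.9.1, cutadapt 1.4.2, CASAVA 1.8.2 and DESeq2. The annotation release and strand setting are not given in the sources used here. The 5 rows that name no gene held 25.6% to 26.4% of reads and entered neither library sizes nor tests. Per the labels, libraries of one group are biological replicates.

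Symbols and positions came from GENCODE M21 and the gene name table (53274 of 53465 identifiers matched), promoter windows from RefSeq, both on GRCm38.p6. Copies were sought with BLAST 2.17.0. The groups were compared with edgeR 4.0.16 (TMM scaling, default count filter with a minimum count of 10 and total of 15, quasi-likelihood F test, two-sided, Benjamini-Hochberg adjustment over all 15951 genes tested, threshold 0.05). The fit was tested on simulated data. Alternatives used DESeq2 1.42.0, other scalings, other count filters, a replicate block and leaving out each library. R 4.3.3 and Python 3.11.15 were used. Counts are of reads without molecular identifiers, so intervals cover counting error only.

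The members and lists were chosen with earlier results of these data known. Named genes are all members, the 4 with the smallest p in each list, and any count of 5 or fewer in full. The 5 profiles nearest to Duxf3 outside the members and the Zscan4 genes are named too.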

Additional observations from a re-analysis of the deposited data

How the results depend on the processing

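Counts of calls in the lists stayed within 1.5 times their main value under RLE size factors, DESeq2, other count filters, the replicate block and leaving out each library, with 2 exceptions. With at least 10 counts asked in every library, 3 cleavage-stage genes were left to test and 2 rose, against 17 with the default filter, because genes silent in control libraries drop out by construction. With no count filter, 21 maternal-effect genes were tested and 2 fell, against 9 tested and 1 that fell with the default filter. The cause was not tested. DESeq2 called 23 cleavage-stage genes higher of 38 it tested.

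The replicate numbers share no stated origin, and deviations of same-numbered libraries correlated at -0.044, 0.008 and 0.029. With 3 libraries a group, this cannot show whether same-numbered libraries were handled together. The main comparison treated the libraries as unpaired. With the replicate number as a block, 5149 genes rose and 5061 fell, against 5180 and 5056 without it, and 17 cleavage-stage genes rose.

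For the 10 members, the fold was at least 10 in 79 of 80 alternatives, the exception being Arg2 at 9.24 without control replicate 3. Bounds and ratios against few control counts change by up to several-fold when a control library is left out, since the floor or the single counts then weigh more, for example to 88.9 for Tcstv1 without control replicate 1, against 398 with all libraries. RLE, DESeq2 and library totals shifted the median log2 fold change of all genes by 0.004, 0.003 and -0.059. At counts this low, differences between members within a group are limited by depth.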
